A study of Homo sapiens with 8 samples.

Results

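The receptor tyrosine kinases of the ERBB family and the EGF-like growth factors that activate them were followed in 2 human colorectal cancer cell lines after the antioxidant enzyme peroxiredoxin II was depleted. The 7 genes described are the receptors EGFR, ERBB2 and ERBB3 and the ligands AREG, EREG, TGFA and HBEGF, taken by symbol from tables of 25192 genes. They were chosen with earlier results of these data known. Each line was transfected for 36 h with either control siRNA (siCon) or siRNA against PRDX2 (siPrdx2), the gene of peroxiredoxin II, and each of the 4 groups holds 2 mRNA sequencing libraries, 8 in all. HT29 and SW480 are established lines of colon adenocarcinoma that carry truncated APC. They were grown in different media, so line and medium cannot be told apart where the lines are compared. The labels describe the libraries of a group as duplicates and do not say whether they come from separate transfections, so the p-values measure only the spread between these samples.

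EGF-like ligands are made as membrane-anchored precursors, and metalloproteases such as ADAM17 cut them loose so that they can bind receptors on the same or neighbouring cells. Amphiregulin (AREG), epiregulin (EREG), transforming growth factor alpha (TGFA) and heparin-binding EGF-like growth factor (HBEGF) all bind EGFR, ERBB2 has no known ligand and serves as a dimer partner, and ERBB3 has little kinase activity of its own and couples its dimers to PI3K. In colorectal cancer, amphiregulin and epiregulin have been studied as markers of benefit from antibodies to EGFR. Peroxiredoxin II removes hydrogen peroxide, which cells make locally when growth factor receptors are activated.

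The libraries held between 8857442 and 10164137 expected counts, the read numbers that RSEM assigns to each gene, and 3 counts corresponded to 0.295 to 0.339 CPM (counts scaled to library size). TPM, which also accounts for transcript length, is the level used below to compare genes. PRDX2 itself was at 331.29 and 343.46 TPM in the HT29 control libraries and at 193.41 and 193.63 TPM after its siRNA (log2 fold change -0.87, adjusted p = 1.15e-09). In SW480 cells it went from 481.72 and 560.2 TPM to 169.15 and 171.87 TPM (log2 fold change -1.70, adjusted p = 0.000618). The depletion was deeper in SW480 than in HT29 cells on the log2 scale (difference -0.84, adjusted p = 0.0128). The adjusted p-values here and below come from edgeR (quasi-likelihood F test), adjusted by Benjamini and Hochberg over all genes of a fit, and a gene is said to rise or fall where the adjusted p is below 0.05. The epithelial markers EPCAM, KRT8 and KRT18 were high in both lines. EPCAM was at 727.48 to 785.81 TPM in HT29 and 340.16 to 411.52 TPM in SW480 cells. VIL1 was at 126.41 to 133.37 TPM in HT29 and 42.65 to 50.81 TPM in SW480 cells. CDX2 was at 8.23 to 13.67 TPM in HT29 and 18.82 to 31.47 TPM in SW480 cells. CDX1 was at most 2.55 TPM in HT29 and 0.28 TPM in SW480 cells, and CEACAM5 was at 5.58 to 7.25 TPM in HT29 cells. CDH1, the epithelial cadherin, was low in SW480 cells (11.98 to 14.71 TPM against 253.49 to 270.33 TPM in HT29), and KRT20 and CEACAM5 were nearly absent there (at most 1.34 and 0.07 TPM). The leukocyte gene PTPRC and the fibroblast gene DCN were at 0 in all 8 libraries. Other genes of these lists were detected. CD14 of the blood cell list was at 6.9 to 9.22 TPM in HT29 and 2.94 to 5.72 TPM in SW480 cells. Of the fibroblast list, COL1A1 was at 1.04 to 1.94 TPM in HT29 and 7.35 to 9.33 TPM in SW480 cells. PDGFRB was at most 0.04 TPM in HT29 and at 1.07 to 1.92 TPM in SW480 cells.

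One library stood apart. The SW480 control libraries differed from each other by a chi-square of 11.2 per degree of freedom over genes, against 1.43 to 2.13 for the duplicates of the other 3 groups, and across genes their log ratio followed the GC content of the transcript (Spearman rho = 0.72). SW480 siCon replicate 1 was also the farther of the control libraries from both siPrdx2 libraries (21.7 and 23.6, against 10.6 and 10.8 for replicate 2). The SW480 fold changes of the 7 genes are therefore also given without it, and sums of levels are given for each library. Fits that leave out 1 SW480 control library keep only 1, so their p-values hold no spread between SW480 controls. In fits of SW480 cells alone the spread then comes from the siPrdx2 pair (chi-square 2.13 per degree of freedom).

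**Figure D1:**
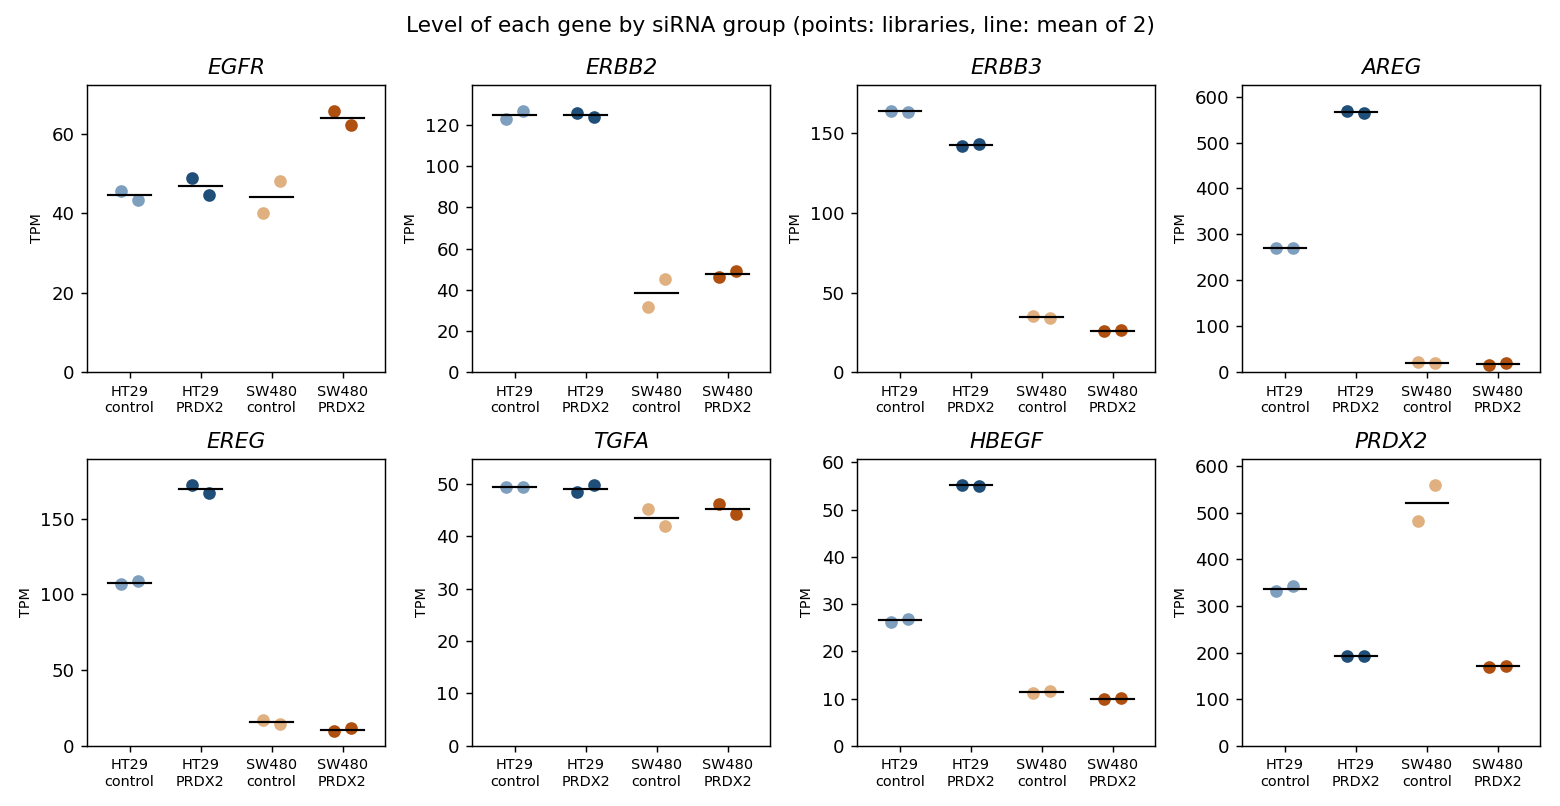
TPM of the 3 receptors, the 4 ligands and PRDX2 (y axes, each from 0) in the 4 groups (x axes), with a point for each library and a line at the mean of 2. In HT29 cells AREG, EREG and HBEGF stand higher with PRDX2 siRNA in both libraries, in SW480 cells they do not, and the SW480 control libraries lie apart for EGFR and ERBB2.

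Among the ligands, AREG, EREG and HBEGF rose in HT29 cells when PRDX2 was depleted, while TGFA did not pass the test. EREG and AREG lie next to each other on the long arm of chromosome 4 (hg19 chr4:75230862-75254466 and chr4:75310853-75320722, both on the plus strand, 56.4 kb apart), in a cluster that also holds the ligand genes EPGN and BTC. HBEGF lies on chromosome 5 (chr5:139712428-139726188, minus strand) and TGFA on chromosome 2 (chr2:70674416-70781325, minus strand). The 250 bases before the transcription start of the 4 ligand genes are shown because 3 of the genes moved together in HT29 cells and 1 did not. They are from RefSeq on GRCh38.p14, each in the direction of its gene, at chr4:74444886-74445135 for AREG, chr4:74364895-74365144 for EREG, chr5:140346604-140346853 for HBEGF and chr2:70553827-70554076 for TGFA (the most upstream of its 2 entries). Capitals mark the cyclic AMP response element TGACGTCA, its core TGACG and the GC box GGGCGG, on either strand.
AREG: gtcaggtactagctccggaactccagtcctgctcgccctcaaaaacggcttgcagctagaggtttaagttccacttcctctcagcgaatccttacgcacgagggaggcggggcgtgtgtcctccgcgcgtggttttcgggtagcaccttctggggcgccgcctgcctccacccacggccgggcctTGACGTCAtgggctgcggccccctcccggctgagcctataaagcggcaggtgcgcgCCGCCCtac
EREG: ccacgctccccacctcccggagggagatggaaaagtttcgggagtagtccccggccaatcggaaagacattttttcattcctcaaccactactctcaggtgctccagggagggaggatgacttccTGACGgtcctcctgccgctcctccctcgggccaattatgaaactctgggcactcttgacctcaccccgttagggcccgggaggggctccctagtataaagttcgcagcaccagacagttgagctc
HBEGF: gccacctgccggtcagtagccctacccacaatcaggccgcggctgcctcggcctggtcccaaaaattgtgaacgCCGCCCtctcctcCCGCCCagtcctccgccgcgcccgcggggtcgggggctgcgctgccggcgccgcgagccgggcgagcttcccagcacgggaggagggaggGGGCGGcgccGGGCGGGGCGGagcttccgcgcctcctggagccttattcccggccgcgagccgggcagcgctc
TGFA: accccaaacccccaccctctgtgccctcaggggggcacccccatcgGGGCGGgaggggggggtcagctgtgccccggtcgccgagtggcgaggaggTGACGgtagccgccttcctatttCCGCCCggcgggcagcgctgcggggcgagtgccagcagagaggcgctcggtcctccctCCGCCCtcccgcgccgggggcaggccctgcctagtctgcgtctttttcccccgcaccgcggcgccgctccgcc
The AREG promoter held the full TGACGTCA, beginning 65 bases before the start, a match found in 1.6% of the 35116 promoters of the table. The core TGACG, which the full element contains, was also present in EREG at 125 and in TGFA at 154 bases before the start, and in 21.2% of all promoters. GC boxes occurred in AREG, HBEGF and TGFA, and in 42.6% of all promoters. None of the 4 windows held the AP-1 site TGANTCA (6.6% of promoters), the TCF/LEF site CTTTGAT (2.3%), the antioxidant response element TGACNNNGC (10.9%) or the ETS site CCGGAAG (8.5%) on either strand. No motif was found in the 3 ligand genes that rose and lacking in TGFA.

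AREG was the most abundant of the 7 genes in HT29 cells. Its level was 270.58 and 270.22 TPM in the control libraries and 568.64 and 564.89 TPM in the siPrdx2 libraries. The groups did not overlap and the duplicates were nearly equal, so that the rise amounted to 2-fold (log2 fold change 1.00, SE 0.04, 95% interval 0.93 to 1.08, adjusted p = 8.23e-12). Amphiregulin is a low-affinity EGFR ligand that colon epithelium and its tumours make in quantity.

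HBEGF was the lowest of the 7 genes in HT29 control cells, at 26.32 and 26.84 TPM, and stood at 55.28 and 55.10 TPM after PRDX2 siRNA. The rise was as large as that of AREG (1.99-fold, log2 fold change 0.99, SE 0.07, 95% interval 0.84 to 1.13, adjusted p = 1.76e-08). Heparin-binding EGF-like growth factor binds ERBB4 as well as EGFR and is known as an early response gene of many stimuli.

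EREG, the broad-range ligand of EGFR and ERBB4, went from 106.87 and 108.56 TPM to 172.32 and 167.10 TPM, a rise of 1.51-fold (log2 fold change 0.59, SE 0.03, 95% interval 0.52 to 0.66, adjusted p = 1.4e-09). TGFA was at 49.49 and 49.46 TPM with control siRNA and at 48.40 and 49.85 TPM with PRDX2 siRNA. These ranges overlapped, and the interval of its log2 fold change ran from -0.18 to 0.03 (adjusted p = 0.327), well short of the changes of the other ligands.

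The 3 receptors changed less in HT29 cells. ERBB3 was at 164.11 and 163.72 TPM in the control libraries and at 142.18 and 143.42 TPM in the siPrdx2 libraries, without overlap, and fell by 0.25 on the log2 scale (SE 0.03, adjusted p = 6.78e-06). ERBB2 was at 122.80 and 126.86 TPM before and 125.72 and 123.85 TPM after (log2 fold change -0.06, 95% interval -0.14 to 0.01, adjusted p = 0.231). EGFR was at 45.66 and 43.21 TPM before and 48.95 and 44.68 TPM after (log2 fold change 0.02, 95% interval -0.08 to 0.13, adjusted p = 0.809). Neither receptor changed beyond the spread of its duplicates.

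In all, 4 of the 7 genes passed the test in HT29 cells, where 17.6% of the 12961 genes tested did. The 3 ligands that rose compare with 7.76% of genes called higher, and the 1 receptor that fell with 9.82% called lower. All 7 genes passed the filter on low counts in every comparison. The same 4 genes passed in each fit that left out 1 HT29 library. In a single fit over all 8 libraries the fall of ERBB3 no longer passed (adjusted p = 0.0974). In limma on log2(TPM + 1) AREG and HBEGF passed, but EREG and ERBB3 did not (adjusted p = 0.053 and 0.112), and on log2(TPM + 0.1) none of the 7 did. With a trended prior, a setting added after seeing the data, limma called the same 4 genes on either scale. Of all genes called in HT29 cells, 44.1% were higher in edgeR and 69.6% in limma with a trended prior.

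Summed over the 4 ligands, the transcript level in HT29 cells was 453.3 and 455.1 TPM with control siRNA and 844.6 and 836.9 TPM with PRDX2 siRNA. The 3 receptors together were at 332.6 and 333.8 TPM and at 316.9 and 312 TPM. Ligand transcripts thus stood at 1.36 times the receptor transcripts in both control libraries and at 2.67 and 2.68 times in the siPrdx2 libraries. AREG made up 59.7% and 59.4% of ligand transcripts before and 67.3% and 67.5% after, and the share of TGFA went from 10.9% in both to 5.7% and 6% without a change in its own level that passed the test.

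**Figure D2:**
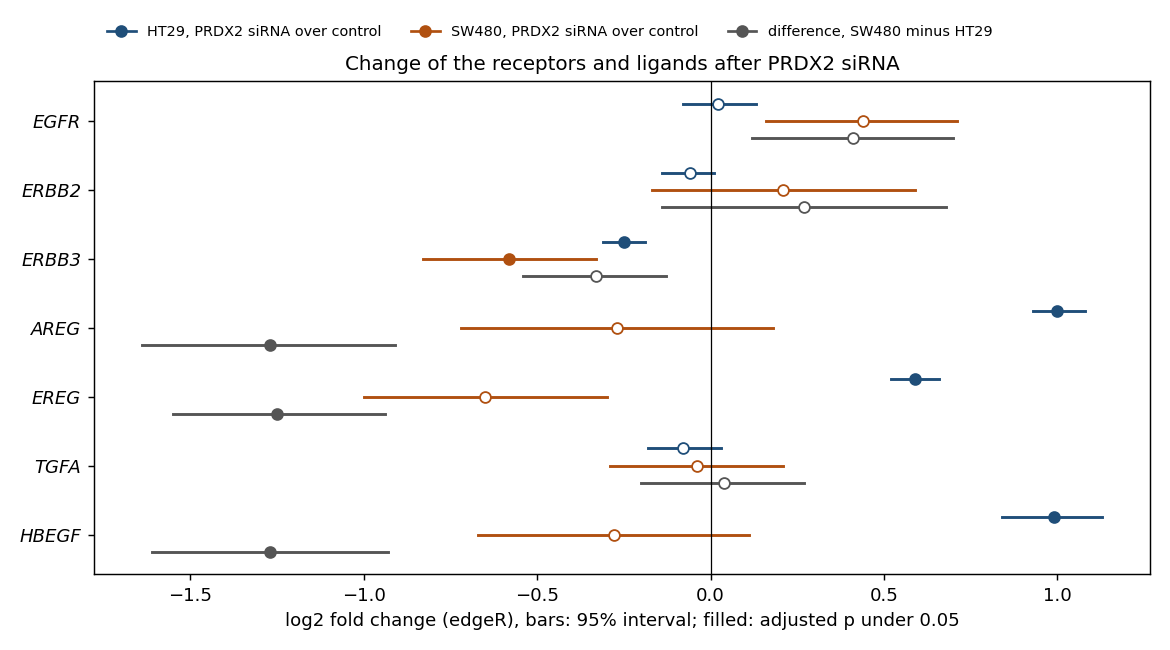
Log2 fold change of each gene (rows) with PRDX2 siRNA against control siRNA in HT29 and SW480 cells, and the difference between the lines, with 95% intervals as bars and filled points where the adjusted p is below 0.05. AREG (1.00), EREG (0.59) and HBEGF (0.99) lie above 0 in HT29 cells, ERBB3 lies below 0 in both lines, and the difference passes for the same 3 ligands.

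In SW480 cells no ligand rose. EREG was at 16.78 and 14.41 TPM in the control libraries and at 9.63 and 11.46 TPM in the siPrdx2 libraries (log2 fold change -0.65, SE 0.16, 95% interval -1 to -0.30). The groups did not overlap, but the difference missed the threshold (adjusted p = 0.0568). HBEGF was at 11.08 and 11.65 TPM before and 9.92 and 10.05 TPM after, also without overlap (log2 fold change -0.28, 95% interval -0.67 to 0.11, adjusted p = 0.348). TGFA was at 45.16 and 41.97 TPM before and 46.24 and 44.26 TPM after, with overlapping groups (log2 fold change -0.04, 95% interval -0.29 to 0.21, adjusted p = 0.872).

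AREG in SW480 cells was at 22.25 and 18.76 TPM in the control libraries and at 15.80 and 20.17 TPM in the siPrdx2 libraries, with overlapping groups (log2 fold change -0.27, 95% interval -0.72 to 0.18, adjusted p = 0.423). This value depends on how reads were shared with AREGB, a near-identical copy that hg19 places 159.9 kb downstream (chr4:75480629-75490486) and that RefSeq on GRCh38 lists as a synonym of AREG. AREGB had 0 expected counts in both SW480 control libraries and in all 4 HT29 libraries, and 25.42 and 14.89 in the SW480 siPrdx2 libraries. Added together, the copies had 104 and 96 counts with control siRNA and 104 and 117 with PRDX2 siRNA. On the sum the log2 fold change was 0.02 (95% interval -0.39 to 0.43, adjusted p = 0.963), so the lower AREG value was not seen once the copies were pooled.

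**Figure D3:**
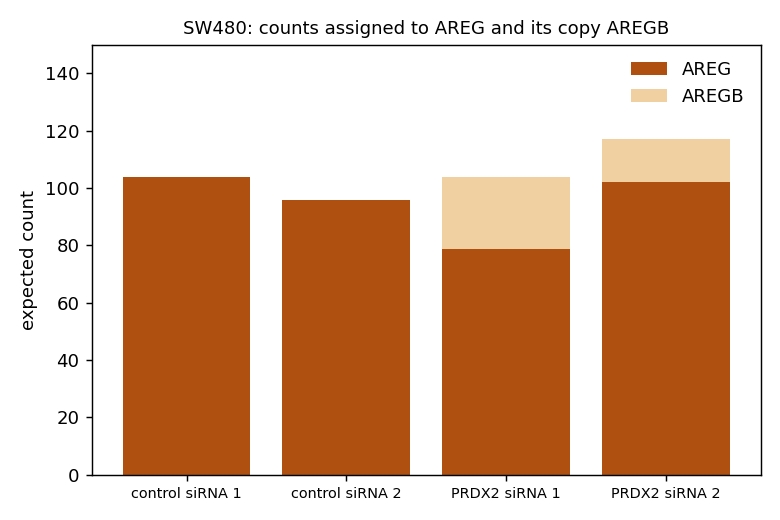
Expected counts (y axis, from 0) assigned to AREG and to its copy AREGB in the 4 SW480 libraries (x axis), stacked. The stacks reach 104 and 96 counts in the control libraries and 104 and 117 in the siPrdx2 libraries, and AREGB takes part of them only with PRDX2 siRNA (25.42 and 14.89).

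Of the receptors, ERBB3 fell in SW480 cells as well. It was at 35.14 and 34.17 TPM with control siRNA and at 25.69 and 26.50 TPM with PRDX2 siRNA, without overlap (0.668-fold, log2 fold change -0.58, SE 0.11, 95% interval -0.83 to -0.33, adjusted p = 0.0302). EGFR was at 40.05 and 48.12 TPM before and 65.69 and 62.11 TPM after, also without overlap, but did not pass (log2 fold change 0.44, SE 0.12, 95% interval 0.16 to 0.71, adjusted p = 0.0862). ERBB2 was at 31.39 and 45.46 TPM before and 46.15 and 48.95 TPM after, narrowly without overlap (log2 fold change 0.21, 95% interval -0.17 to 0.59, adjusted p = 0.461). For ERBB2 the spread lay almost wholly within the control pair.

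ERBB3 was thus the 1 of 7 genes called in SW480 cells, where 3.3% of the 14112 genes tested passed in either direction and 2.08% were called lower. Without SW480 siCon replicate 1, the library that stood apart, 24.6% of the 13995 genes tested passed, and of the 7 genes ERBB3, EGFR and EREG did so (log2 fold changes -0.58, 0.30 and -0.55, adjusted p for EGFR 5.41e-05 and for EREG 0.000576), while ERBB2 was at -0.04, AREG at -0.15, HBEGF at -0.32 and TGFA at 0.01. Without siCon replicate 2, a fit that called 52.8% of 13955 genes, 4 of the 7 passed, ERBB2 among them (0.51, adjusted p = 3.11e-09). Without either siPrdx2 library none passed, and ERBB3 had adjusted p-values of 0.542 and 0.539, since the spread then came from the control pair alone. The direction of EGFR, ERBB3 and EREG was the same in each of these fits.

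**Figure D4:**
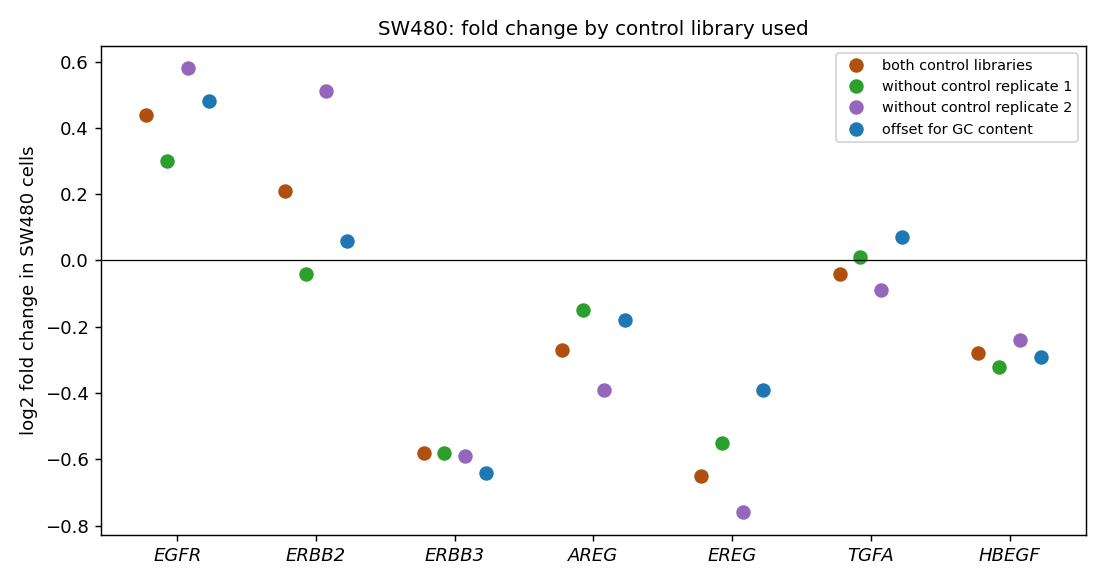
Log2 fold change with PRDX2 siRNA in SW480 cells (y axis) for each gene (x axis), fitted with both control libraries, without either one, and with an offset for GC content. ERBB3 stays between -0.64 and -0.58, whereas ERBB2 runs from -0.04 to 0.51 depending on the control library used.

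The transcripts of the 7 genes differ in GC content, the property along which the SW480 control libraries parted. It was 36.1% for EREG, lower than in all but 3.3% of the genes tested, and 57.5% for ERBB2, against a median of 48.5%. With an offset for GC content, the log2 fold change in SW480 cells was -0.39 for EREG (adjusted p = 0.0428), 0.06 for ERBB2 and 0.48 for EGFR (adjusted p = 0.00807). The offset changed the size of the EREG value and not its direction.

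Ligand transcripts in SW480 cells summed to 95.3 and 86.8 TPM with control siRNA and to 81.6 and 85.9 TPM with PRDX2 siRNA. TGFA was the largest share, at 47.4% and 48.4% before and 56.7% and 51.5% after. Receptor transcripts summed to 106.6 and 127.8 TPM before and to 137.5 and 137.6 TPM after, and ERBB3 went from 33% and 26.7% of them to 18.7% and 19.3%. The ratio of ligand to receptor transcripts was 0.89 and 0.68 in the control libraries and 0.59 and 0.62 in the siPrdx2 libraries. These sums leave out AREGB, at 0 in the control libraries and at 6.24 and 3.59 TPM in the siPrdx2 libraries. If its reads belong to AREG, the ligand sums and ratios with PRDX2 siRNA are too low and the TGFA shares too high.

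Whether the lines responded differently was tested as the difference of the PRDX2 siRNA effects in 1 fit over the 8 libraries. It passed for AREG, EREG and HBEGF, 3 of 7 genes, where 1.12% (166) of the 14772 genes tested passed and 0.616% did so with a lower effect in SW480 cells. The difference, SW480 minus HT29, was -1.27 on the log2 scale for AREG (SE 0.17, adjusted p = 0.00707), -1.25 for EREG (SE 0.14, adjusted p = 0.00248) and -1.27 for HBEGF (SE 0.16, adjusted p = 0.00543). With AREG and AREGB pooled, the AREG difference was -0.99 (adjusted p = 0.0133). The fit over 8 libraries pools the spread of both lines. Its SEs lie below those of the SW480 fit alone (0.2 for AREG, 0.16 for EREG and 0.17 for HBEGF). The SEs and p-values of the difference thus understate the spread in SW480 cells. TGFA differed by 0.04 (adjusted p = 0.896), ERBB3 by -0.33 (adjusted p = 0.107), EGFR by 0.41 (adjusted p = 0.146) and ERBB2 by 0.27 (adjusted p = 0.444), so the fall of ERBB3 was not shown to differ between the lines.

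The size of these differences held when single libraries were left out, but the calls did not all hold. AREG ranged from -1.45 to -0.99 and HBEGF from -1.31 to -1.20 over all alternatives. Both missed the threshold without any 1 of the HT29 libraries or without SW480 siPrdx2 replicate 1 (adjusted p from 0.0547 to 0.0854), and HBEGF also without SW480 siPrdx2 replicate 2 (adjusted p = 0.0659). EREG missed it without HT29 siPrdx2 replicate 1 (adjusted p = 0.0508). Without SW480 siCon replicate 1 all 3 ligands passed, and EGFR and ERBB3 with them, in a fit that called 9.32% of all genes.

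With control siRNA, the 2 lines differed in the level of 6 of the 7 genes, each lower in SW480 than in HT29 cells. Genes differing between the lines were the majority of the transcriptome, with 67.5% of the 14346 genes tested called and 31.8% called lower in SW480 cells. This comparison uses the same control libraries as the knockdown comparisons, and line, medium and any difference in when the libraries were made cannot be told apart. Bulk RNA also does not separate fewer cells with a transcript from less of it per cell.

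AREG differed most, at 0.0692 times its HT29 level (log2 fold change -3.85, adjusted p = 9.35e-08), followed by EREG (log2 fold change -2.92, adjusted p = 1.99e-07). ERBB3 (-2.38, adjusted p = 2.06e-07), ERBB2 (-1.81, adjusted p = 2.1e-05) and HBEGF (-1.35, adjusted p = 6.1e-05) were also lower. TGFA was lower by a small margin (-0.31, adjusted p = 0.0293), which did not pass in DESeq2, in limma on TPM or without either HT29 control library (adjusted p = 0.259 in both). EGFR did not pass (-0.15, adjusted p = 0.327). Its estimate turned to 0.07 without SW480 siCon replicate 1 (adjusted p = 0.289), and it was lower in SW480 cells without replicate 2 (-0.23, adjusted p = 0.00226).

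The order of the 7 levels therefore differed between the lines. In HT29 control cells it ran AREG, ERBB3, ERBB2, EREG, TGFA, EGFR and HBEGF, and no neighbours overlapped between libraries. After PRDX2 siRNA EREG stood above ERBB3 and ERBB2, and HBEGF above TGFA and EGFR, whose ranges overlapped. In SW480 control cells EGFR, TGFA, ERBB2 and ERBB3 formed the upper part, each overlapping the next, and AREG, EREG and HBEGF followed in that order without overlap. With PRDX2 siRNA EGFR stood alone at the top, ERBB2 and TGFA overlapped below it, and EREG and HBEGF overlapped at the bottom.

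The remaining receptor and ligands of the family were scarce. ERBB4, the family's other receptor and a target of neuregulins, had 0 counts in all 4 HT29 libraries and at most 3 in any SW480 library. The ligand genes EPGN and NRG3 had at most 1 and 0 counts, at or below the 3 counts that a zero allows. BTC, the fourth ligand gene of the chromosome 4 cluster, had 15 to 23 counts in HT29 cells and 5 to 9 in SW480 cells. In HT29 cells its log2 fold change was 0.01 (SE 0.35, 95% interval -0.73 to 0.75, adjusted p = 0.99). This interval holds the change of EREG (0.59) but not that of AREG (1.00), which lies nearer to BTC. EGF itself had 6 to 20 counts in HT29 cells and at most 1 in SW480 cells. The neuregulins NRG1 and NRG2, ligands of ERBB3, showed the reverse, with 6 to 37 and 51 to 91 counts in SW480 libraries and at most 1 in HT29 libraries. NRG4 had 4 to 9 counts in HT29 and 12 to 26 in SW480 libraries. In SW480 cells NRG1 had 30 and 37 counts with control siRNA and 18 and 6 with PRDX2 siRNA (log2 fold change -1.59, SE 0.43, adjusted p = 0.0754). Of the 8 genes in this list, 2 were tested in HT29 and 3 in SW480 cells, and none passed. In fits chosen after seeing the data, NRG1 did pass without SW480 siCon replicate 1 (-1.68, adjusted p = 0.000529), siCon replicate 2 (-1.5, adjusted p = 0.00173) or siPrdx2 replicate 1 (-2.59, adjusted p = 0.00573), not without siPrdx2 replicate 2 (-1, adjusted p = 0.594), and NRG2 passed without siCon replicate 2 (0.57, adjusted p = 0.0324).

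Release of the ligands depends on ADAM17 and ADAM10 and on iRhom proteins (RHBDF1, RHBDF2) with FRMD8 that bring ADAM17 to the surface. Of these genes and the rhomboid protease RHBDL2, 2 of 6 fell in HT29 cells, where 9.82% of all genes did, RHBDF1 by 0.20 and RHBDL2 by 0.27 on the log2 scale (adjusted p = 0.00478 and 0.0351). ADAM17 and ADAM10 had log2 fold changes of -0.05 and -0.03 and did not pass. In SW480 cells none of the 5 tested passed.

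Of 14 genes listed for attenuation or turnover of the receptors, 2 rose and 1 fell in HT29 cells. This share was close to the 17.6% of all genes called there. ERRFI1, whose product MIG6 binds and inhibits the kinase domain of EGFR and is itself induced by EGFR signalling, was at 257.91 and 252.68 TPM in HT29 control cells and at 426.47 and 428.89 TPM with PRDX2 siRNA. It rose by 0.68 on the log2 scale (adjusted p = 1.13e-11). In SW480 cells it was at 27.28 and 24.30 TPM before and 29.05 and 27.92 TPM after, and the difference between the lines passed (-0.63, adjusted p = 0.0238, and -0.55 without SW480 siCon replicate 1). It did not pass without either SW480 siPrdx2 library (adjusted p = 0.158 and 0.208). RNF41, a ubiquitin ligase for ERBB3, rose in HT29 cells (0.27, adjusted p = 0.000366), and LRIG1, which promotes receptor degradation, fell (-0.33, adjusted p = 0.000691). The other 11 of the 14 genes of this list did not pass in HT29 cells, and none of the 14 passed in SW480 cells. The median log2 fold change of the list was 0.04 in HT29 cells, against 0 for all genes.

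Downstream, 5 of 13 genes of ERK output and feedback rose in HT29 cells and 1 fell, with a median of 0.09, where 7.76% of all genes were called higher and 9.82% lower. EGR1, an immediate early transcription factor, went from 140.63 and 133.45 TPM to 201.64 and 201.36 TPM (log2 fold change 0.49, adjusted p = 6.35e-08). DUSP5, a nuclear ERK phosphatase, rose by 0.48 (adjusted p = 0.000468), FOSL1 by 0.41 (adjusted p = 0.0013) and PHLDA1 by 0.31 (adjusted p = 7.63e-06) on the same scale. In SW480 cells none of the 13 passed with both control libraries, and EGR1 and FOSL1 were at 0.45 and 0.54 (adjusted p = 0.0695 and 0.0573). Without SW480 siCon replicate 1, EGR1 was at 0.37, FOSL1 at 0.38, PHLDA1 at 0.11, DUSP5 at -0.04 and DUSP6 at -0.28. Only effect sizes are given for that fit, since it keeps 1 SW480 control library. The difference between the lines passed for DUSP5 (-0.52, adjusted p = 0.0493) and for DUSP6, a cytoplasmic ERK phosphatase named after its values were seen (-0.49, adjusted p = 0.0448). Both missed the threshold without either SW480 siPrdx2 library (adjusted p = 0.255 and 0.24 for DUSP5, 0.181 and 0.269 for DUSP6).

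Among the adaptors and kinases between receptor and output, the calls in HT29 cells numbered 2 of 17 and 3 of 8, beside 17.6% of all genes. Of 17 adaptors and RAS-ERK kinases, MAP2K2 and ARAF fell in HT29 cells (-0.22 and -0.27, adjusted p = 0.00889 and 0.0108), and no other gene passed in that line. Of 8 PI3K-AKT genes, PIK3R2 and PDPK1 rose by 0.18 and 0.13 (adjusted p = 0.0357 and 0.0285) and PIK3R1 fell by 0.13 (adjusted p = 0.0327). PIK3R2, a regulatory subunit of PI3K, was the 1 gene of these lists that passed in SW480 cells, where it went from 31.01 and 35.37 TPM to 59.43 and 60.48 TPM (log2 fold change 0.76, adjusted p = 0.0161, and 0.66 without SW480 siCon replicate 1). It did not pass without either siPrdx2 library (adjusted p = 0.161 and 0.204). The fit without SW480 siCon replicate 1 was chosen for these lists after seeing the data. It keeps 1 SW480 control library, so only effect sizes of the named genes are given. In SW480 cells the log2 fold change was then 0 for RHBDF1, 0.13 for ERRFI1, 0.24 for RNF41 and -0.52 for LRIG1. It was 0.11 for MAP2K2, 0.05 for ARAF, 0.04 for PDPK1 and 0.1 for PIK3R1.

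**Figure D5:**
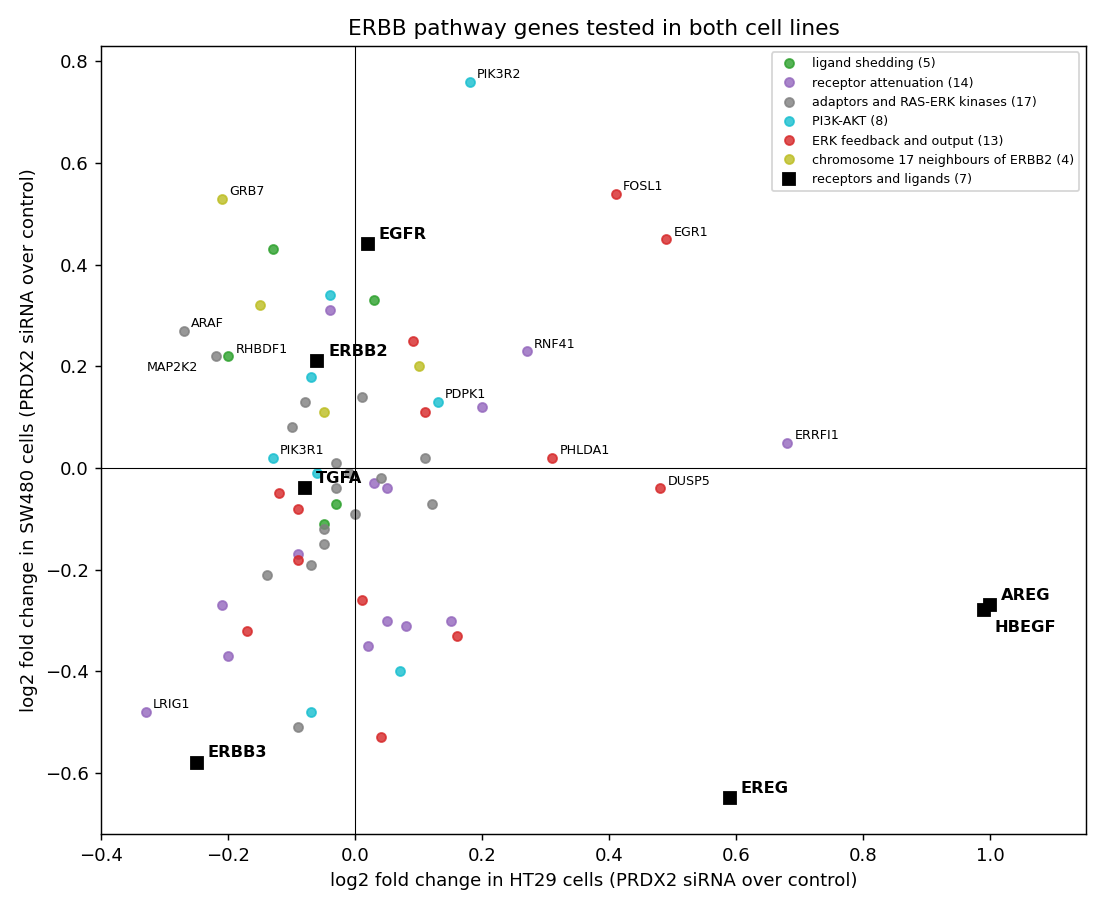
Log2 fold change with PRDX2 siRNA in HT29 cells (x axis) against SW480 cells (y axis) for the genes of the ERBB pathway lists that were tested in both lines, as circles coloured by list, and the 7 receptors and ligands, as squares. AREG and HBEGF lie farthest to the right (1.00 and 0.99), followed by ERRFI1 (0.68) and EREG (0.59), and the other list genes lie within -0.33 to 0.49 on the x axis.

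ERBB2 lies on chromosome 17 (hg19 chr17:37844167-37886679) among genes that are often amplified with it in tumours. Of 7 neighbours, 5 were tested in HT29 cells, where 9.82% of all genes tested were called lower. GRB7, an adaptor that binds ERBB2, fell by 0.21 on the log2 scale (adjusted p = 0.0275), and the others had log2 fold changes from -0.15 to 0.10 and did not pass. With control siRNA, GRB7 and PGAP3 were lower in SW480 than in HT29 cells (-1.85 and -2.35, adjusted p = 2.48e-05 and 2.18e-06), as ERBB2 was, while MIEN1 and STARD3, which also flank ERBB2, did not pass (-0.31 and 0.03). Of the 6 neighbours tested there, 3 were lower and 1 was higher in SW480 cells. Of all genes tested, 31.8% were called lower and 35.7% higher in that comparison. In the GENCODE gene spans, MIEN1 (hg19 chr17:37884749-37886785) overlaps the end of ERBB2, and PGAP3 (chr17:37827375-37853050) its start, both on the other strand. The counts rest on RefSeq genes, whose overlap was not examined. Reads of any shared bases cannot be told apart without strand.

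The genes whose levels most resembled each of the 7 were found by Pearson correlation over the 8 libraries, after the mean of each line was removed, among 11812 genes. They are a description over libraries that share their groups. AREG was followed most closely by RAB30 (r = 0.994), EREG by RTFDC1 (0.994), HBEGF by the stress-induced gene DDIT4 (0.996), TGFA by SEH1L (0.965), ERBB3 by the ribosomal protein gene RPS13 (0.998), EGFR by GGA3 (0.988) and ERBB2 by NUMA1 (0.994). The correlation disregards the size of a change. In HT29 cells DDIT4 (log2 fold change 0.6) and RPS13 (-0.19) passed the test, whereas RAB30 (0.69), RTFDC1 (0.06), SEH1L, GGA3 and NUMA1 did not. Among the 7 genes themselves, AREG and HBEGF were most alike (r = 0.96), then AREG and EREG (0.85) and EREG and HBEGF (0.81), and EGFR and ERBB3 ran against each other (-0.85).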

How the data were processed

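Libraries were made with the TruSeq RNA kit from cells of 4 groups (HT29 or SW480, siCon or siPrdx2; 2 libraries each). The authors deposited RSEM output against hg19 with RefSeq genes, giving for each gene an expected count, the estimated reads of that gene, and TPM, normalized by the authors to length and library. Of the expected counts, 3.18% were not whole, since RSEM splits reads among similar genes. They were rounded here. Genes reaching 10 counts in 2 or more libraries of a fit were tested with edgeR 4.0.16 (R 4.3.3; TMM, quasi-likelihood, Benjamini-Hochberg over all genes tested, threshold 0.05). Each line was fitted alone, the difference over 8 libraries. Standard errors are the log2 fold change over the square root of F, and intervals use the t distribution. DESeq2 1.42.0, which the submitters' processing notes name, and limma 3.58.1 on the log2 of TPM plus 1 or plus 0.1 were alternatives, with RLE normalization, no low-count filter, a robust prior, a GC offset, a replicate block, pooled AREG copies, all 8 libraries in 1 fit and each library left out. The 3-count floor covers counting error only.

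GC content came from the longest GENCODE transcript of a symbol (23292 of 25192 symbols matched), and the hg19 gene positions are GENCODE gene spans. Fits were tested on simulated data with changed genes: of those changed by 1 on the log2 scale, edgeR recovered 99% in HT29, 98% in SW480 and 94% for the difference, and of those changed by 0.5, 87%, 39% and 27%. The changed genes were drawn from well-counted genes only, and no GC shift between the SW480 controls was simulated. These rates need not hold for genes with few counts, such as AREG and HBEGF in SW480 cells. The genes and lists were chosen with earlier results of these data known. Named were the 7 genes, PRDX2, AREGB, and, of each pathway list, up to 4 genes with the smallest p among those called in either line, plus the most similar gene of each member. List genes outside that rule are given by count or as background of the family.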

Additional observations from a re-analysis of the deposited data

Results flagged for a closer look

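Among the receptors, the ligands, PRDX2 and the list genes named here, the effect of PRDX2 siRNA differed between the lines for 7, PRDX2 included. This is by a test of the difference itself (edgeR, adjusted over all genes tested). DDIT4, named above for its likeness to HBEGF, passed as well (log2 difference, SW480 minus HT29, -0.82, adjusted p = 0.00722). That test pools the spread of both lines and so understates the spread in SW480 cells. On the log2 scale, SW480 minus HT29, the difference was -1.27 for AREG (adjusted p = 0.00707), -1.25 for EREG (adjusted p = 0.00248), -1.27 for HBEGF (adjusted p = 0.00543), -0.63 for ERRFI1 (adjusted p = 0.0238), -0.52 for DUSP5 (adjusted p = 0.0493) and -0.49 for DUSP6 (adjusted p = 0.0448), among 166 genes in all. Without either SW480 siPrdx2 library ERRFI1, DUSP5 and DUSP6 did not pass (adjusted p from 0.158 to 0.269). PRDX2 itself was depleted more deeply in SW480 cells (-0.84, adjusted p = 0.0128), and its part in these differences was not tested.

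AREGB, the copy of AREG, had 25.42 and 14.89 expected counts in SW480 siPrdx2 replicates 1 and 2 and 0 in the control libraries. The pooled count of both copies gave a log2 fold change of 0.02 (edgeR, adjusted p = 0.963).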

How the results depend on the processing

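In HT29 cells 4 of the 7 genes passed, and 4 did without any single library. limma on log2(TPM + 1) called 2 (AREG and HBEGF) and on log2(TPM + 0.1) called 0 (all genes 26 and 3, of 3549 and 3391 at an unadjusted p under 0.05), whereas limma with a trended prior, added after seeing the data, called the same 4 genes. In SW480 cells 1 passed, against 2 with DESeq2, 3 with a replicate block, 3 with a GC offset, 3 with both and 3 with all 8 libraries in 1 fit, 0 in each limma fit, and 0 to 4 without single libraries. For the difference 3 passed, against 1 in limma on log2(TPM + 0.1), 5 with a GC offset and 0 to 6 without single libraries. With control siRNA 6 differed, and 5 to 7 under the alternatives.

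Directions that turned were those of EGFR in HT29 cells without siPrdx2 replicate 1 (-0.03), and, in SW480 cells, TGFA in limma (0.05 and 0.06), with a GC offset (0.07), with that and the block (0.07) and without siCon replicate 1 (0.01, lowest -0.09 without replicate 2), ERBB2 without siCon replicate 1 (-0.04, highest 0.51 without replicate 2) and AREG pooled with AREGB (0.02). EGFR between the lines turned to 0.07 without SW480 siCon replicate 1 and passed at -0.23 without replicate 2. None of the turned values passed. The cause was not tested.

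The deviations of same-numbered libraries had a correlation of 0.05 in HT29 and 0.08 in SW480 cells. The labels do not say whether these libraries were paired. The SW480 value cannot decide it, because the control pair there differs along GC content. The block raised the calls over all genes in SW480 cells from 466 to 1727. Other counts over all genes that moved by more than 1.5 times were, in HT29 cells (2279), 871 with DESeq2 and 185 with all 8 libraries; in SW480 cells, 2253 with a GC offset, 2784 with both, 2415 with all 8 libraries, 12 and 2 in limma, 214 and 177 with a trended prior and 87 to 7364 without single libraries; and for the difference (166), 267 without a filter, 311 with DESeq2, 349 with the block, 919 with a GC offset, 82 and 27 in limma, 103 and 43 with a trended prior and 6 to 5237 without single libraries. Between the lines limma on TPM moved the median of all genes from 0.04 to 0.15 and 0.16.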
